A study of Mus musculus with 24 samples.

Results

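The genes Hmgcs1, Sqle, Idi1, Insig1, Lss, Dhcr7 and Srebf2, which encode enzymes and regulators of cholesterol synthesis, were followed in the medial prefrontal cortex (mPFC) of mice at postnatal day 21. They are 7 of the 24972 genes listed for each sex, in a male and a female table, and were taken by symbol. The offspring were B6D2F1/J, born to C57BL/6J dams mated with DBA/2J sires. The dams received either saline (SAL) or 10 mg/kg morphine (MO), injected daily under the skin from before mating until weaning, and the offspring themselves were not injected. Each of the 4 combinations of sex and treatment had 6 libraries, 24 in all. Each sex gave 1 offspring per litter, so male and female libraries share litters, but which libraries are littermates is not given. Values are the normalized counts deposited by the authors, scaled separately in each table, so levels were compared between MO and SAL within a sex only.

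Cholesterol does not cross from blood into the brain in useful amounts, and neural cells make their own from acetyl-CoA, much of it in oligodendrocytes for myelin and in astrocytes. The transcription factor SREBP2, encoded by Srebf2, is held in the endoplasmic reticulum by SCAP and INSIG proteins while sterols are plentiful. When sterols run low it moves to the Golgi, is cut by proteases and enters the nucleus, where it turns on the genes of synthesis and uptake. Hmgcs1 makes HMG-CoA at the start of the pathway, Idi1 isomerises isopentenyl diphosphate, Sqle oxidises squalene, Lss closes the ring to lanosterol and Dhcr7 carries out a last reduction to cholesterol. Insig1 is itself a target of SREBP2.

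The 250 bases before the RefSeq start site (build GRCm38.p6, all on the plus strand) are shown for the genes of the pairs that the results turn on, to place the sterol-type element TCACNCCA and the CCAAT and GGGCGG boxes, which are known partners of SREBP sites. Capitals mark a match on either strand to TCACNCCA, CCAAT or GGGCGG, and in Insig1 to CACNCCAC. The windows lie at chr13:119690101-119690350 for Hmgcs1, chr15:82147019-82147268 for Srebf2, chr5:28071162-28071411 for Insig1, chr13:8885356-8885605 for Idi1 and chr10:76531355-76531604 for Lss.
Hmgcs1: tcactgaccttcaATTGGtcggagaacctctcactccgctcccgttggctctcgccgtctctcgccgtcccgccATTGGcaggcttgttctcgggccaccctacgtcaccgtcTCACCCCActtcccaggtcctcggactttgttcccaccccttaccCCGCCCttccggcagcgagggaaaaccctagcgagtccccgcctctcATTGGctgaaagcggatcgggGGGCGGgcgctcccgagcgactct
Srebf2: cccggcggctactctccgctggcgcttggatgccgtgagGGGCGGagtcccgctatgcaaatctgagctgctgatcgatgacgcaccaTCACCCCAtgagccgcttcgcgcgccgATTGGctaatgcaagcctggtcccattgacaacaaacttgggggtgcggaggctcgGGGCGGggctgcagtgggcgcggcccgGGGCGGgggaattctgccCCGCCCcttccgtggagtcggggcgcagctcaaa
Insig1: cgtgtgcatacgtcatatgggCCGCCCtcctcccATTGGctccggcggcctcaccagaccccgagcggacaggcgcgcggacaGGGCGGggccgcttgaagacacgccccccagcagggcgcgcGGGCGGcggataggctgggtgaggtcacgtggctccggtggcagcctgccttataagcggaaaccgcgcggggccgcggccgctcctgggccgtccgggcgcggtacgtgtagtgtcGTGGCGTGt
Idi1: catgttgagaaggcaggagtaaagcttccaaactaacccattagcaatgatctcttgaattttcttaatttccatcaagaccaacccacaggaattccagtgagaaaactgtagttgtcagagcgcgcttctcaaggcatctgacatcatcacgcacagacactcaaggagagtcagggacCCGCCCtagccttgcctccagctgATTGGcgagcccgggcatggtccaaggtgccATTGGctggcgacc
Lss: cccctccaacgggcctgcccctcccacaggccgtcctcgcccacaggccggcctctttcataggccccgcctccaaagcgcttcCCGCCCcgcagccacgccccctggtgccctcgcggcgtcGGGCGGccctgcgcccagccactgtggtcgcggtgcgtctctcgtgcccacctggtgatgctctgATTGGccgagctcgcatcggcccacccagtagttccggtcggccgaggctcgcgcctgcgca

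Matches were counted in RefSeq windows that reach 50 bases past the start site. Of the 7 genes 6 had a window, Dhcr7 with several, and Sqle had none and was not searched. TCACNCCA was found in Hmgcs1 (first base 137 before the start) and Srebf2 (162 before the start), against 4.36% of the 32851 windows of all genes. The longer form TCACNCCAC was found in Hmgcs1 alone, against 1.24% of windows. CACNCCAC, which overlaps that form, was found in Hmgcs1 and in Insig1, against 6.24% of windows. The palindrome TCACGTGA was in no member window, against 0.974% of all. CCAAT and GGGCGG were each in a window of all 6 genes, against 37.4% and 35.7% of windows. Counted by gene, with a match in any window, the shares of 27025 symbols were 4.97% for TCACNCCA, 1.44% for TCACNCCAC and 7.12% for CACNCCAC. For CCAAT and GGGCGG they were 41.1% and 38.2%. A match is a run of letters and does not show that a factor binds there.

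Hmgcs1 had the highest level of the 7 genes per length and Lss the lowest. In male SAL libraries the level per kilobase of the longest annotated transcript was 2867 ± 152 normalized counts for Hmgcs1, and 792 ± 49.1 for Sqle (SD, n = 6). Srebf2 stood at 613 ± 25.97 and Insig1 at 572 ± 22.3 per kilobase in the same libraries, and these neighbours overlapped between libraries. Idi1 followed at 422 ± 35.8, Dhcr7 at 235 ± 19.03 and Lss at 107 ± 6.78 per kilobase. Female SAL libraries gave the same order, from 2760 ± 183 for Hmgcs1 to 106 ± 9.21 for Lss per kilobase. There Insig1 overlapped both Srebf2 and Idi1. Of the 85-base stretches in Idi1 transcripts, 16.4% occur also in Gm13502 or Gm35570, so reads from them cannot be assigned by sequence alone. This is a share of sequence and not of reads, and its effect on Idi1 counts was not measured. For the other members this share was below 0.5%.

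Between libraries the genes varied more in females than in males. Over 12 libraries the coefficient of variation ran from 4.64% (Hmgcs1) to 9.78% (Idi1) in males, and from 7.78% (Hmgcs1) to 20.2% (Idi1) in females. Reads per library were estimated at 13306000 to 20138000. Counting error, taken as if the mean normalized count of each gene were a count of reads, is 1.01% to 4.47%. It is smaller than the spread for each gene. The libraries carried the cortical excitatory marker Slc17a7 at 24987 normalized counts or more. A list of 6 striatal markers summed to 1626 to 6351 normalized counts per library, with Ppp1r1b the highest of them (up to 2856) and Drd2 among the lowest (up to 217). The female MO library PFC1 stood apart from its table (median Spearman correlation 0.982, against at least 0.992 for the other libraries). Its 10 oligodendrocyte markers summed to 320758 normalized counts, where the medians of the 4 groups were 61517 to 81339, and its striatal sum was the highest of the female libraries. PFC1 had the highest Idi1 (1951), Lss (658) and Insig1 (1698) of the female libraries and the lowest Srebf2 (2362). The female fold changes of these 4 genes are given with and without it. In bulk tissue, fewer cells of a type and less RNA per cell cannot be told apart.

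**Figure D1:**
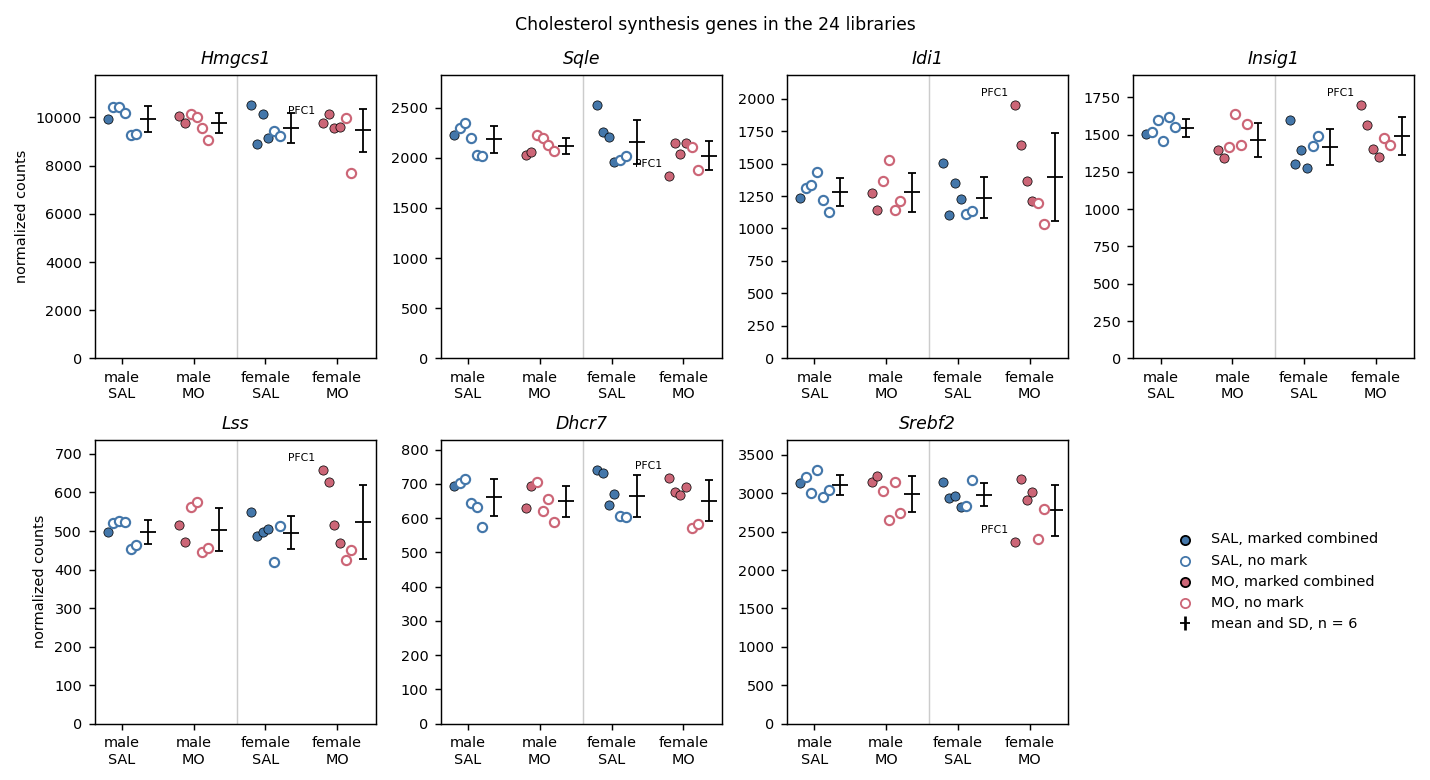
Normalized counts (y axis, from 0) of each of the 7 genes in the 24 libraries, by sex and treatment (x axis). Filled points are libraries whose columns are marked combined, open points are the others, and black bars give the mean and SD of 6 libraries. SAL and MO overlap in every panel, and PFC1 lies at the edge of the female MO group for Idi1, Insig1, Lss and Srebf2.

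No member passed the test of MO against SAL in either sex. Of the 7 genes, 0 reached an unadjusted p of 0.05 in males, where 2.85% of the 16662 genes tested did, and 0 in females, where 2.93% of 16717 did. After adjustment over all genes none passed in either sex (0% of genes, limma). The MO and SAL values of each member overlapped in both tables, as they did for all but 0.06% of genes in males and 0.132% in females. The median log2 fold change of the 7 members was -0.02 in males and -0.02 in females, and that of all genes lay within 0.01 of 0 in both.

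Of the enzymes, Hmgcs1 lay between 9288 and 10448 normalized counts (median 10066) in male SAL and between 9048 and 10131 (median 9883) in male MO libraries. Its log2 fold change in males was -0.02 (95% interval -0.12 to 0.07). In females Hmgcs1 ran from 8885 to 10518 (median 9324) in SAL and from 7691 to 10150 (median 9694) in MO. Groups lay over one another in both sexes, and the female MO library PFC23 was alone at the low end. The female log2 fold change was -0.02 (95% interval -0.19 to 0.15).

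Idi1 had the widest interval of the 7 genes in females. It ran from 1107 to 1502 normalized counts (median 1182) in female SAL and from 1034 to 1951 (median 1286) in female MO libraries. The highest library was PFC1, and MO held both ends of the range. The log2 fold change was 0.15 (95% interval -0.13 to 0.44, exact permutation p = 0.364). Without PFC1 it was 0.05, and it ran from 0.049 to 0.23 with each female library left out. In males Idi1 ran from 1128 to 1439 in SAL and from 1139 to 1531 in MO, with a log2 fold change of -0.00 (95% interval -0.16 to 0.15).

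MO and SAL also overlapped for Lss, Dhcr7 and Sqle. Lss ran from 453 to 526 normalized counts in male SAL and from 444 to 576 in male MO, so MO libraries held both ends. In females it ran from 419 to 549 in SAL and from 426 to 658 in MO, with a log2 fold change of 0.07 (95% interval -0.16 to 0.30). Without PFC1 that value was -0.00. Dhcr7 ran from 574 to 715 in male SAL and from 589 to 706 in male MO, and the female groups also lay over one another, at 603 to 740 in SAL and 572 to 716 in MO. Its log2 fold changes were -0.02 in males (95% interval -0.15 to 0.11) and -0.03 in females (-0.20 to 0.14). Sqle ran from 2023 to 2345 in male SAL and from 2028 to 2226 in male MO, and from 1960 to 2527 in female SAL and 1815 to 2151 in female MO. SAL held the highest library in both sexes. The log2 fold changes of Sqle were -0.05 (95% interval -0.14 to 0.05) and -0.09 (-0.25 to 0.07).

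Of the regulators, Insig1 ran from 1458 to 1617 normalized counts (median 1535) in male SAL and from 1341 to 1637 (median 1423) in male MO libraries. Of the 6 male MO libraries 4 lay below all SAL libraries, while PFC15 and PFC19 lay among or above them. The log2 fold change was -0.08 (95% interval -0.18 to 0.03, exact permutation p = 0.167), and without PFC15 it was -0.11 at an unadjusted p of 0.0355 (limma). In females Insig1 ran from 1273 to 1596 in SAL and from 1349 to 1698 in MO, with a log2 fold change of 0.07 (95% interval -0.08 to 0.23), or 0.03 without PFC1. The difference between the sexes was 0.15 on the log2 scale (95% interval -0.03 to 0.33, unadjusted p = 0.0996, limma interaction), and 0.11 without PFC1. No member passed the interaction test, where 2.1% of 17303 genes reached an unadjusted p of 0.05 and 0% an adjusted one.

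Srebf2 ran from 2954 to 3300 normalized counts (median 3094) in male SAL and from 2657 to 3220 (median 3087) in male MO. In females it ran from 2818 to 3177 (median 2957) in SAL and from 2362 to 3190 (median 2854) in MO. The lowest library of each sex was an MO library, PFC15 in males and PFC1 in females. The log2 fold change was -0.06 in males (95% interval -0.17 to 0.05) and -0.11 in females (-0.27 to 0.06), the latter -0.06 without PFC1. Over both tables it was -0.08 (95% interval -0.18 to 0.01, permutation within sex p = 0.0873). It was -0.06 without PFC1 (unadjusted p = 0.163) and -0.10 without PFC3, another female MO library (unadjusted p = 0.0308, limma). With the tables joined, 0 of the 7 members passed, where 4.64% of genes reached an unadjusted p of 0.05 and 0% an adjusted one.

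**Figure D2:**
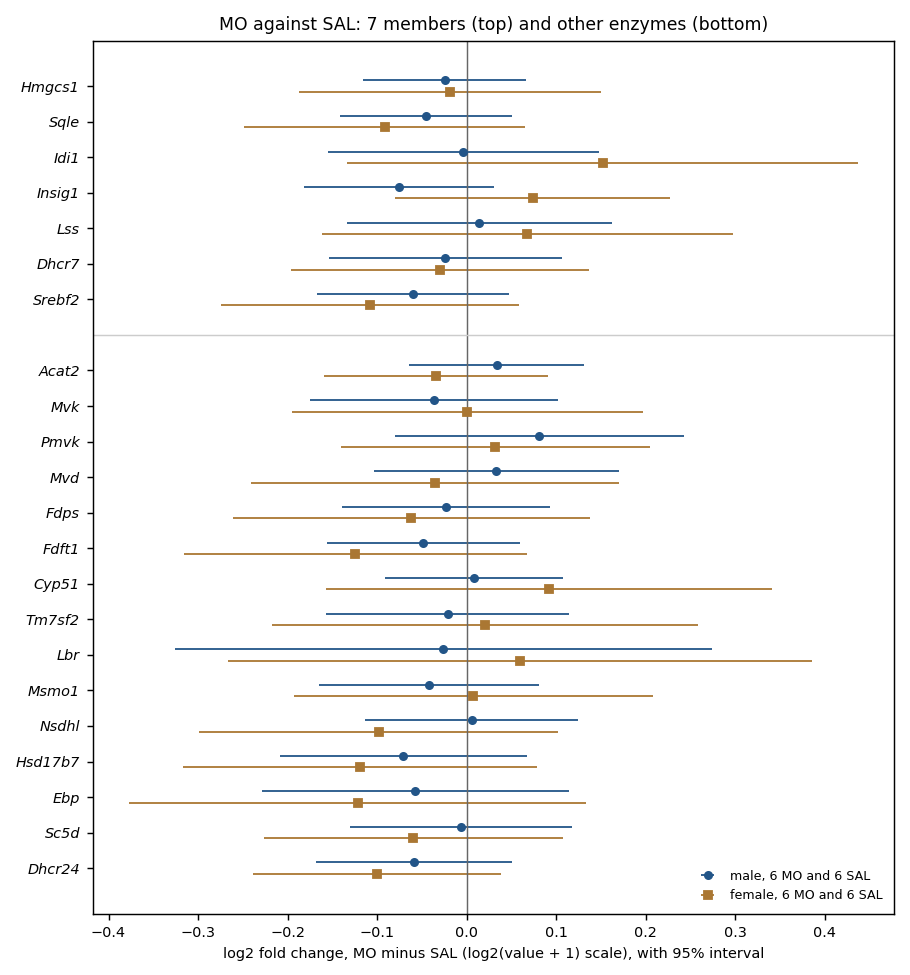
Log2 fold change of MO against SAL (x axis, log2(value + 1) scale) with 95% intervals for the 7 members (top) and other enzymes of the pathway (bottom), males as circles and females as squares, 6 libraries per group. Every interval contains 0, and the female intervals are the wider ones for each member.

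Nor did any other enzyme of the pathway pass. Of 16 other enzymes from acetyl-CoA to cholesterol, 0 reached an unadjusted p of 0.05 in either sex. In males 5 had a log2 fold change above 0 and 11 below (median -0.02), and in females 6 above and 10 below (median -0.05). Cyp51, the lanosterol demethylase, had log2 fold changes of 0.01 in males and 0.09 in females, and Fdft1, squalene synthase, of -0.05 and -0.12. Among 8 genes of SREBP processing and sterol sensing 0 passed in either sex. Insig2, the second INSIG, had log2 fold changes of 0.02 and 0.01, and Srebf1, which encodes SREBP1 of fatty acid synthesis, 0.02 and 0.14.

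With the tables joined, 2.18% of genes were lower at an unadjusted p of 0.05, and these included 4 genes of the neighbouring lipid and endoplasmic reticulum lists. They were Acaca, the acetyl-CoA carboxylase of fatty acid synthesis (log2 fold change -0.10), Acly, the citrate lyase that supplies acetyl-CoA (-0.09), Cyp46a1, the neuronal cholesterol hydroxylase (-0.10), and Herpud1 of endoplasmic reticulum quality control (-0.12). Adjusted p was 0.857 for each (limma), and leaving out PFC1 raised the unadjusted p of all 4 above 0.05. Of the 24 libraries left out in turn, 8 did this for Acaca, 11 for Acly, 14 for Cyp46a1 and 11 for Herpud1. Of the 7 other settings, 1 did so for each of Acaca, Acly and Herpud1, and 2 for Cyp46a1. Within a sex, 0 of 11 fatty acid synthesis genes, 0 of 12 genes of sterol export, storage and turnover and 0 of 8 endoplasmic reticulum chaperone genes passed. Immediate early genes, which follow neuronal activity, were lower in males for 8 of 8 at an unadjusted p under 0.05, where 1.52% of all genes were lower (median log2 fold change -0.62), and those with the smallest p were Egr1 (-0.51), Fos (-0.67), Npas4 (-0.76) and Arc (-1.10). The count was 7 or 8 with any 1 male library left out, Fosb being lost without PFC13, PFC17 or PFC20, and no adjusted p was under 0.05. In females 0 of the 8 passed, at a median of -0.53. With the tables joined 7 of the 8 were lower at an unadjusted p under 0.05 (median -0.58), where 2.18% of genes were. In the interaction test 0 of the 8 passed, so a difference between the sexes was not shown. Meningeal fibroblast markers were also lower in males for 4 of 5 at an unadjusted p under 0.05 (median -0.43), namely Col1a1 (-0.69), Dcn (-0.43), Slc6a13 (-0.53) and Col1a2 (-0.35), with adjusted p of 1.00 (limma). The 5 markers summed to 962 to 1995 normalized counts in male SAL and 661 to 1231 in male MO libraries, and none was at 0. With any 1 male library left out the count was 2 to 4, the lowest without PFC14, and in females it was 0 of 5. Their part in the other male differences was not tested. Endothelium and pericyte markers were higher in females for 3 of 6 at an unadjusted p under 0.05 (median 0.19), where 2.93% of genes passed. In males 0 of these 6 passed. Erythroid markers were higher for 4 of 5 with the tables joined (median 0.60), where 4.64% of genes passed. By sex, 1 was higher and 1 lower in males, and 0 passed in females. The 4 reference genes had 0 passing in either sex.

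From library to library, most of the enzymes moved together. Over the 21 pairs of members the median Pearson r of log2 values was 0.36 in the 12 male and 0.39 in the 12 female libraries, whereas the median over all pairs of genes was -0.00165 and -0.00285. In males 16 and in females 17 of the 21 pairs had r above 0 (76.2% and 81.0%, against 49.8% and 49.7% of all pairs of genes). The sign agreed above 0 in both tables for 14 pairs. Both genes of a pair are measured in the same libraries, which differ in depth and cell makeup. Their r is therefore not independent of either. Of 42 pair tests, 4 had an adjusted permutation p under 0.05, 3 in males and 1 in females.

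Idi1 and Lss formed the tightest positive pair in both sexes. In males r was 0.89 (Spearman rho 0.90, permutation p = 0.00016, adjusted p = 0.00357) and in females 0.89 (rho 0.83, permutation p = 0.00017, adjusted p = 0.00357). Without the 2 libraries farthest from the Idi1 median it was 0.89 in males and 0.67 in females, and without PFC1 the female value was 0.81. With each gene centred on its drug group r stayed at 0.89 in both. When both genes were replaced by their residuals on the oligodendrocyte markers, r was 0.64 in males and 0.49 in females. In libraries of the more common state of the combined mark, r was 0.91 in males (n = 9) and 0.95 in females (n = 8).

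Hmgcs1 was tied to Sqle and Lss in males. Its r with Sqle was 0.78 (rho 0.75, permutation p = 0.00318, adjusted p = 0.0362) and 0.77 without the 2 farthest libraries. With Lss r was also 0.78 (rho 0.78, permutation p = 0.00345, adjusted p = 0.0362) and 0.70 without the 2 farthest. Within male SAL libraries r was 0.96 with Sqle and 0.98 with Lss, and within male MO libraries 0.41 and 0.78. Centred on drug group, r was 0.78 with Sqle (permutation within drug groups, adjusted p = 0.0677) and 0.80 with Lss (adjusted p = 0.00672). In females the same pairs had r of 0.52 (adjusted permutation p = 0.217) and 0.39 (adjusted permutation p = 0.405). The difference between the sexes was not tested.

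**Figure D3:**
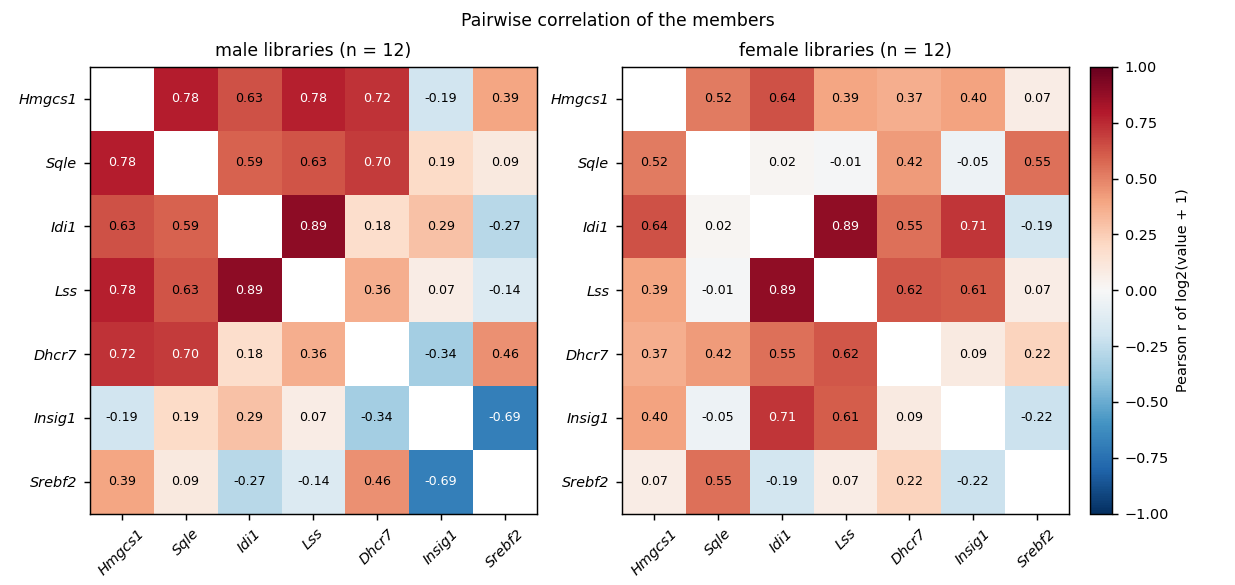
Pearson r of log2(value + 1) for each pair of the 7 genes, over 12 male libraries (left) and 12 female libraries (right), with red above 0 and blue below. Idi1 and Lss stand at 0.89 in both maps, and the Srebf2 row holds the lowest male value, -0.69 with Insig1.

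Srebf2 had the weakest tie to the rest in females, and Insig1 and Srebf2 had the weakest in males. Against the mean of the other 6 members, r was -0.04 in males and 0.12 in females for Srebf2, and -0.15 and 0.38 for Insig1. For Hmgcs1 the same measure was 0.90 and 0.63, and for Sqle 0.85 and 0.36, so that female Insig1 lay beside Sqle.

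In males, Insig1 and Srebf2 ran against each other. The SAL library with the least Insig1 (PFC16, 1458 normalized counts) had the most Srebf2 (3300), and the one with the most Insig1 (PFC18, 1617) had the least Srebf2 (2954). In MO libraries the lowest Insig1 (PFC11, 1341) came with the highest Srebf2 (3220), and the highest Insig1 (PFC15, 1637) with the lowest Srebf2 (2657). Over the 12 male libraries r was -0.69 (rho -0.76, permutation p = 0.0118, adjusted p = 0.0706) and -0.55 without the 2 libraries farthest from the Insig1 median. MO and SAL lay on offset lines, so r was also taken within each group of 6, where it was -0.96 in SAL and -0.98 in MO libraries. With both genes centred on their drug group it was -0.97 (permutation within drug groups p = 4e-05, adjusted p = 0.00168 over the 42 pairs). Leaving out each male library in turn gave -0.98 to -0.95. Among 11837 other genes with a mean of at least 50, Insig1 was the one with the lowest centred r against Srebf2 in males, a pair singled out after its values were seen.

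Estimated depth moved with both genes in males. After centring on drug group, r with the estimated number of reads was 0.66 for Srebf2 (permutation p = 0.0014, adjusted p = 0.0196 over 14 relations) and -0.62 for Insig1 (permutation p = 0.00389, adjusted p = 0.0272). Values at least as far from 0 were seen for 7.97% and 12.3% of the 16662 male genes. With both genes replaced by their residuals on the estimated reads, r between them was -0.96. In females the pair gave r of -0.22 (rho 0.06, permutation p = 0.499), -0.10 after centring on drug group and 0.26 without PFC1. Within female SAL libraries r was 0.77 and within female MO libraries -0.49. Whether the male and female values differ was not tested.

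**Figure D4:**
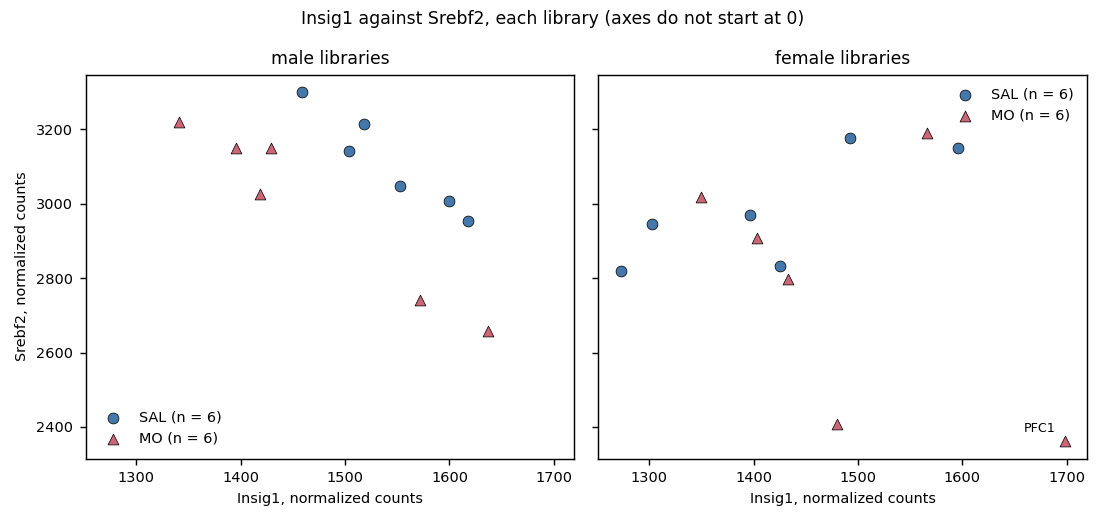
Insig1 (x axis) against Srebf2 (y axis), both in normalized counts, for each male (left) and female (right) library, SAL as circles and MO as triangles, with axes that do not start at 0. The male SAL and MO libraries fall along offset descending lines (r = -0.96 and -0.98), and the female libraries do not.

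The members also moved with the rest of their pathway. A member score, the mean of the 7 genes after scaling each to an SD of 1 within a table, had r of 0.80 in males (rho 0.72, permutation p = 0.00279, adjusted p = 0.0251) and 0.82 in females (rho 0.78, permutation p = 0.00082, adjusted p = 0.0148) with the same score over the 16 other enzymes. Without the 2 farthest libraries the values were 0.81 and 0.64. Sqle followed the 16 enzymes most closely of the members, with r of 0.92 and 0.74. For 11 fatty acid synthesis genes r with the member score was 0.82 (adjusted permutation p = 0.017) and 0.91 (adjusted permutation p = 0.00288), and 0.70 and 0.94 without the 2 farthest libraries. The p-values were adjusted over 36 relations, 18 lists in each sex.

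Some glial markers moved with the member score as well, and in females some neuronal lists did too. Over the oligodendrocyte, astrocyte and microglia lists, 2 of 6 relations had an adjusted permutation p under 0.05 by Pearson's r and 4 of 6 by Spearman's rho. For 7 markers of oligodendrocyte precursors and newly formed cells r was 0.63 in males and 0.46 in females (adjusted permutation p = 0.106 and 0.278). For 6 endothelium and pericyte markers r was 0.64 and 0.44 (adjusted permutation p = 0.106 and 0.289). Neither list passed by rho. For 10 oligodendrocyte markers r was 0.57 in males (adjusted permutation p = 0.167) and 0.75 in females (adjusted permutation p = 0.0372), the latter 0.77 without PFC1. For 8 astrocyte markers it was 0.74 in males (adjusted permutation p = 0.0395) and 0.51 in females (adjusted permutation p = 0.220). For 6 microglia markers it was 0.68 in males (adjusted permutation p = 0.0712) and 0.55 in females (adjusted permutation p = 0.173). In the 9 male and 8 female libraries of the more common state of the combined mark, r was 0.57 and 0.61 for oligodendrocyte markers. In the same libraries it was 0.91 and 0.34 for astrocyte markers and 0.68 and 0.40 for microglia markers. After centring on drug group over all libraries, the oligodendrocyte r was 0.70 in males and 0.77 in females. The 6 interneuron markers went the other way in females, with r of -0.70 (adjusted permutation p = 0.0554; rho -0.76, adjusted p = 0.0322) and -0.84 without PFC1, and had r of 0.04 in males. The 6 striatal markers had r of 0.53 in females (adjusted permutation p = 0.203) with rho of 0.71 (adjusted p = 0.041), and r of 0.26 in males. For 6 excitatory neuron markers r was 0.04 in females (adjusted permutation p = 0.896), but 0.82 without PFC1, and -0.20 in males. For 5 meningeal fibroblast markers r was -0.57 in females (adjusted permutation p = 0.167), -0.81 without PFC1, and 0.43 in males. The summed oligodendrocyte markers ran from 42007 to 150138 normalized counts in males and from 33557 to 320758 in females. Replacing each member by its residual on the oligodendrocyte score changed the median pair r to 0.48 in males and 0.13 in females. The residual on the astrocyte score gave 0.33 and 0.32. The part of cell makeup in these relations was not tested further.

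**Figure D5:**
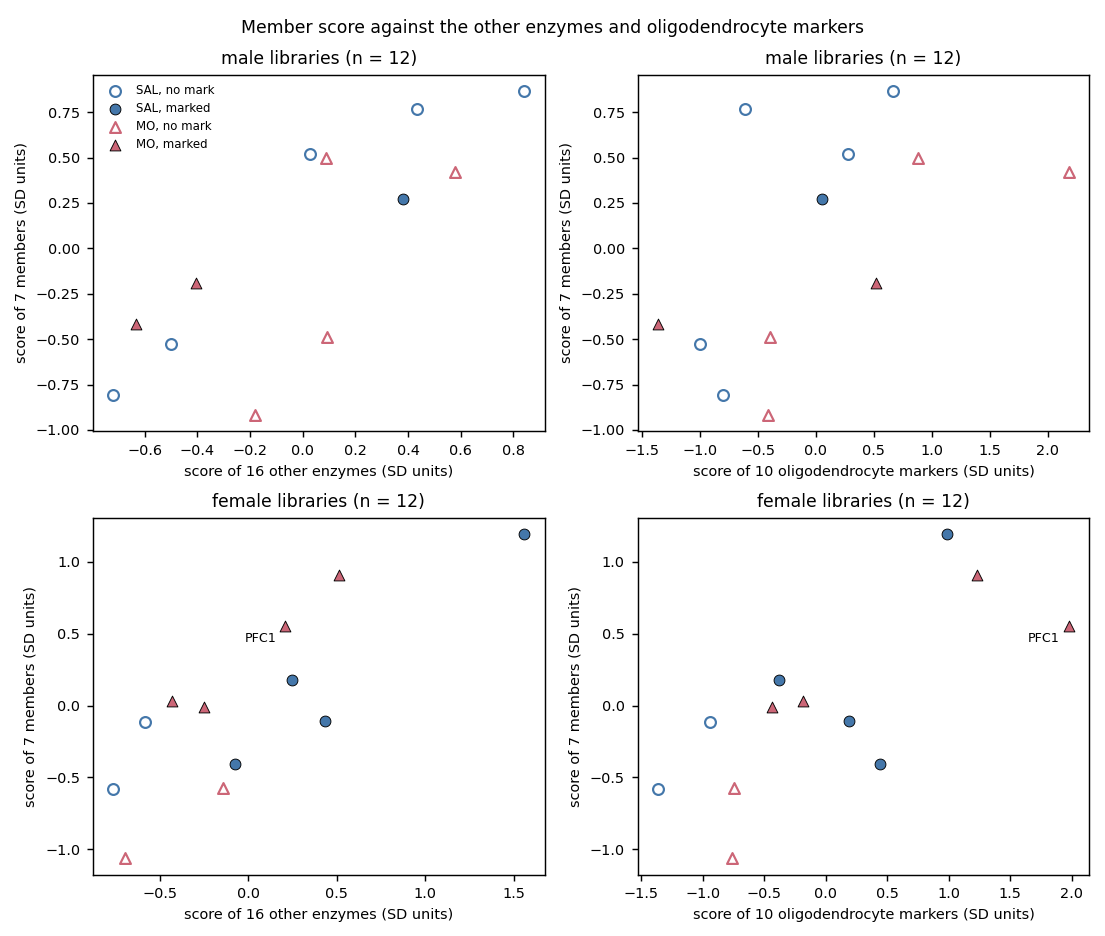
Member score (y axis, SD units) against the score of 16 other enzymes (left) and of 10 oligodendrocyte markers (right) in male (top) and female (bottom) libraries, SAL as circles and MO as triangles, filled where the column is marked combined. The member score rises with the enzymes in both sexes (r = 0.80 and 0.82). With the oligodendrocyte markers r is 0.57 in males and 0.75 in females, or 0.70 and 0.77 after centring on drug group. The difference between the sexes was not tested.

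Of 11776 genes with a mean of at least 50 in both tables, the one most like the member score was Msmo1, the sterol methyl oxidase that acts after lanosterol, with r of 0.94 in males and 0.86 in females. It ran from 1781 to 2237 normalized counts in male SAL and from 1845 to 2172 in male MO. The next were Zdhhc9, a palmitoyltransferase (0.88 and 0.83), 5031439G07Rik (0.81 and 0.84), Ppp6r1, a subunit of a protein phosphatase (0.79 and 0.86), and Slc29a3, a nucleoside transporter (0.89 and 0.78). Dars, an aminoacyl-tRNA synthetase, Alg14 of glycan assembly, Scd2, a fatty acid desaturase, Mfn1 of mitochondrial fusion and Ap3m1 of vesicle coats completed the first 10, with a smaller r between 0.77 and 0.78 in each case. The enzymes Sc5d (rank 11) and Tm7sf2 (rank 85) were also among the first 100. Of the 16 other enzymes, 13 had r above 0 in both tables, against 27.5% of all ranked genes.

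The column names of 11 libraries carry the word combined, with no statement of what was joined. They are PFC1 to PFC11, and PFC12 to PFC24 are unmarked. The mark therefore cannot be told apart from the order of library numbers or from anything that follows it. This mark is balanced over treatment in females, on 4 SAL and 4 MO libraries, and lies on 1 SAL and 2 MO libraries in males. In a model with treatment and the mark, 3 of the 7 members were higher in marked female libraries at an unadjusted p of 0.05, where 14.8% of genes passed and 8.49% were higher. Dhcr7 ran from 639 to 740 normalized counts in marked and from 572 to 605 in unmarked female libraries. Marked and unmarked values did not overlap, which held for 3.04% of genes. The log2 difference of Dhcr7 was 0.22 (95% interval 0.09 to 0.35, unadjusted p = 0.0023). For Idi1 it was 0.32 (95% interval 0.07 to 0.57) and for Lss 0.25 (95% interval 0.04 to 0.45). No gene passed an adjusted p of 0.05 (0%), and the adjusted p of Dhcr7 was 0.166 (limma).

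Other lipid genes and glial markers moved with the mark in females. Of the 16 other enzymes 6 were higher in marked libraries (Cyp51, Fdps, Msmo1, Nsdhl, Sc5d and Tm7sf2) and 0 lower, with Tm7sf2 and Cyp51 both at a log2 difference of 0.30. Of 11 fatty acid synthesis genes 7 were higher, from Scd1 at 0.59 to Me1 at 0.16. The oligodendrocyte markers were higher for 10 of 10 (median log2 difference 1.31) and the microglia markers for 5 of 6. Without PFC1 the counts were again 3 of 7 members, 6 of 16 enzymes and 10 of 10 oligodendrocyte markers, where 15.9% of genes passed. In males 0 of 7 members passed, where 4.05% of genes did and 0% after adjustment. The part of cell makeup in these levels was not tested. With the mark in the model, the MO against SAL differences of the 7 members still had 0 at an unadjusted p of 0.05 in either sex.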

How the data were processed

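RNA of the mPFC was sequenced as single reads of 85 bases from 24 libraries. Per the labels and the study's methods, alignment to mm10 was by STAR, quantification by Salmon and scaling by DESeq2. What the authors deposited is a signal, counts after their normalization, as 1 table per sex. Low values lay near multiples of a step, from which reads per library were estimated, but whole reads could not be recovered, so tests for raw counts were not used. The step also limits the estimate of depth, and counting error is approximate.

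Genes with a sum of at least 10 were kept, and log2(value + 1) was compared with limma 3.58.1 (R 4.3.3, empirical Bayes with a trend, Benjamini-Hochberg over all genes). Fold changes are on that scale. Single genes had 2-sided exact permutation tests over 924 relabellings, and correlations 100000 permutations, in Python 3.11.15. Libraries are treated as independent. The fit was tested on simulated data, with 50 genes changed at each fold. At 1.25-fold, 52% of them reached an adjusted p under 0.05 in males and 38% in females. At 1.5-fold the shares were 96% and 72%. Changes of 1.5-fold or less could therefore be missed in either sex, more often in females.

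The members and lists were chosen with earlier results of these data known. Named genes were the members, 6 fixed pathway genes (some items of the lists are not reported here), up to 4 genes per list and table at an unadjusted p under 0.05, and the 10 genes most like the member score. Promoter sequences are from RefSeq, gene lengths from GENCODE. Alternatives were other pseudocounts, filters and scalings, a term for the combined mark, and leaving out each library.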

Additional observations from a re-analysis of the deposited data

Results flagged for a closer look

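Of 28 groups of 6 libraries (7 genes in 4 groups), 1 had a library farther from the rest than Dixon's 95% critical value for 6 samples allows, where chance flags about 1 in 20 groups. It was Hmgcs1 in female MO library PFC23, at 7691 normalized counts against 9559 in the nearest of the other 5, a gap of 0.76 of the whole range. Without PFC23 the female log2 fold change of Hmgcs1 was 0.04. PFC23 also had the lowest member score of the female libraries (-1.06).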

How the results depend on the processing

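No paired analysis was possible because the labels give each library a number of its own. In males 0 of the 7 members passed an unadjusted p of 0.05 under each of the 7 other settings, and 0 or 1 did with each library left out, the 1 being Insig1 without PFC15. In females the count was 0 throughout. Over both sexes it was 0 under the other settings and 0 to 1 with each library left out (Srebf2 without PFC3). In the interaction it was 0, or 1 when values were scaled to Gapdh and Ppia, and 0 to 1 with each library left out, Insig1 in each case (without PFC2 or PFC15). That scaling put the Insig1 interaction at 0.27 and moved the median interaction of all genes to 0.11. The 16 other enzymes gave 0 under every setting run. The median pair r was 0.76 in males and 0.66 in females when scaled to Gapdh and Ppia, which divides every gene of a library by one shared factor. As residuals on the oligodendrocyte score, added after seeing the data, it was 0.48 and 0.13. The cause of these moves was not tested. Leaving out each library gave 0.26 to 0.43 in males and 0.23 to 0.51 in females. Log2 fold changes close to 0 turned in sign. Under Gapdh and Ppia scaling Lss was at -0.013 in males, and in females Hmgcs1 was at 0.072 and Dhcr7 at 0.061. With a term for the combined mark Idi1 was at 0.011 in males. With each male library left out, Idi1 ran from -0.058 to 0.031, Lss from -0.026 to 0.049 and Dhcr7 from -0.063 to 0.0037. With each female library left out, Hmgcs1 ran from -0.040 to 0.040, Lss from -0.0015 to 0.12 and Dhcr7 from -0.058 to 0.0067. Lss has the largest counting error of the members.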
